A study of Mus musculus with 3 samples.

Results

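The lipid droplet and lipolysis genes Plin1, Cidec, Pnpla2, Lipe and Mgll were followed through 3 lists of open chromatin from mouse fat cells. A site was taken if its midpoint lay in 1 of 5 mm9 windows of 110 to 210 kb set around these genes, a rule that uses position alone. The windows themselves were chosen with earlier results of these data known. The rule gave 113 of the 172496 listed sites: 34 of 48308 in brown fat (BAT), 36 of 60974 in epididymal white fat (eWAT) and 43 of 63214 in inguinal white fat (iWAT). Sites of different lists that overlapped by at least 1 bp or touched were merged, which left 60 regions in the windows of 99297 in all.

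The lists come from DNase-seq, in which the enzyme DNase I cuts exposed DNA in nuclei and the cut ends are sequenced as tags. Precursor cells (the stromal-vascular fraction) of BAT, eWAT and iWAT from male NMRI mice aged 4 to 5 weeks were turned into fat cells in culture, and each depot gave 1 library and 1 list. The BAT cells were pooled from interscapular, cervical and axillary fat. All cultures received 30 nM insulin, 10% serum and 1 μM rosiglitazone, an activator of the fat cell regulator PPARγ, and were harvested on day 8 if more than 50% of the cells had differentiated. No group lacked rosiglitazone, and each culture may hold undifferentiated cells, so more open chromatin per cell and more cells with the site open cannot be told apart. Because every depot has a single library, replicate error is unknown and no test between depots was made. The labelled cell types were not checked against marker genes, because the lists carry no gene names and no mm9 annotation was used here.

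Fat cells store triglyceride in droplets whose surface is coated by proteins. Perilipin 1 (Plin1) is the main droplet coat of fat cells and holds back lipolysis until hormones such as catecholamines act on the cell. The CIDEC protein (also called FSP27) lets droplets exchange and pool their lipid and is known for the single large droplet of white fat cells. Stored fat is then broken down in sequence by adipose triglyceride lipase (Pnpla2), hormone-sensitive lipase (Lipe) and monoglyceride lipase (Mgll), the enzyme that releases the last fatty acid from glycerol.

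The promoter stretches of the genes are shown because they are the reference regulatory sequence at hand, since the sequence of the listed mm9 sites was not used here. They come from RefSeq (GRCm38.p6), 250 bases before each annotated start, and all 5 genes matched with 8 stretches in all. Which listed site, if any, covers them was not determined, since the lists are in mm9. Only bases outside the annotated gene are printed, 5′ to 3′ on the gene's strand, for the first stretch of each gene; both Lipe stretches lie inside its annotated gene and are not printed. Capitals mark motif matches on either strand. The stretches lie at chr7:79732905-79733026 (minus strand) for Plin1, chr6:113435761-113436010 (minus strand) for Cidec, chr7:141454938-141455187 (plus strand) for Pnpla2 and chr6:88724162-88724411 (plus strand) for Mgll.
Plin1: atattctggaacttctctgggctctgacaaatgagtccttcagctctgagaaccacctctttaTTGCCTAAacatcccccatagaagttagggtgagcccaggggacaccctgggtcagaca
Cidec: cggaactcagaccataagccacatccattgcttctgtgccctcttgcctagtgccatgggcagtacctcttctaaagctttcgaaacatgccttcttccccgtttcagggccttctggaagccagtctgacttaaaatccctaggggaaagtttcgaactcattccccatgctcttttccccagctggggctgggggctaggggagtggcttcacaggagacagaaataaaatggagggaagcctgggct
Pnpla2: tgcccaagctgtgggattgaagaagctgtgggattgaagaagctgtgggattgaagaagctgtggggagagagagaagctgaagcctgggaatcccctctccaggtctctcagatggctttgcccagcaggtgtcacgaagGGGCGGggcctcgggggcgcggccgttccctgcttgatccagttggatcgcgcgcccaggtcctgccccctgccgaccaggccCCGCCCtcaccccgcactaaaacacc
Mgll: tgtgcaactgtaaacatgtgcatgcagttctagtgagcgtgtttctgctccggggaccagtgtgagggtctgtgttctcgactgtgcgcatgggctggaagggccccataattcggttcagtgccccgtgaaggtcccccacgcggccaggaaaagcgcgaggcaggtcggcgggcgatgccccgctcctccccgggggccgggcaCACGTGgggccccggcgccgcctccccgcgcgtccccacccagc

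The motifs searched were a nuclear receptor half-site (AGGTCA), a C/EBP motif (TTNNGCAA), an E-box (CACGTG) and a GC box (GGGCGG), none of which overlapped another here. The E-box occurred 1 time in the first stretch of Mgll and 1 time in the first stretch of Lipe, where 6.02% of all 32851 promoter stretches hold it. The GC box occurred 2 times in Pnpla2, 6 times in the first stretch of Lipe and 1 time in the second stretch of Mgll, and 32.7% of all stretches hold it. The C/EBP motif occurred 2 times in the 250 bases before the Plin1 start, 1 of them in the printed part, and 1 time in the second stretch of Cidec, against 9.56% of all stretches. AGGTCA was in none of the 8 stretches, and 14.0% of all stretches hold it. The printed stretches of Pnpla2 and Mgll were rich in G and C, at 63.2% and 68.0%, while those of Plin1 and Cidec held 50.0% and 52.8%. A match is a description of these letters and does not show that a factor binds.

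**Figure D1:**
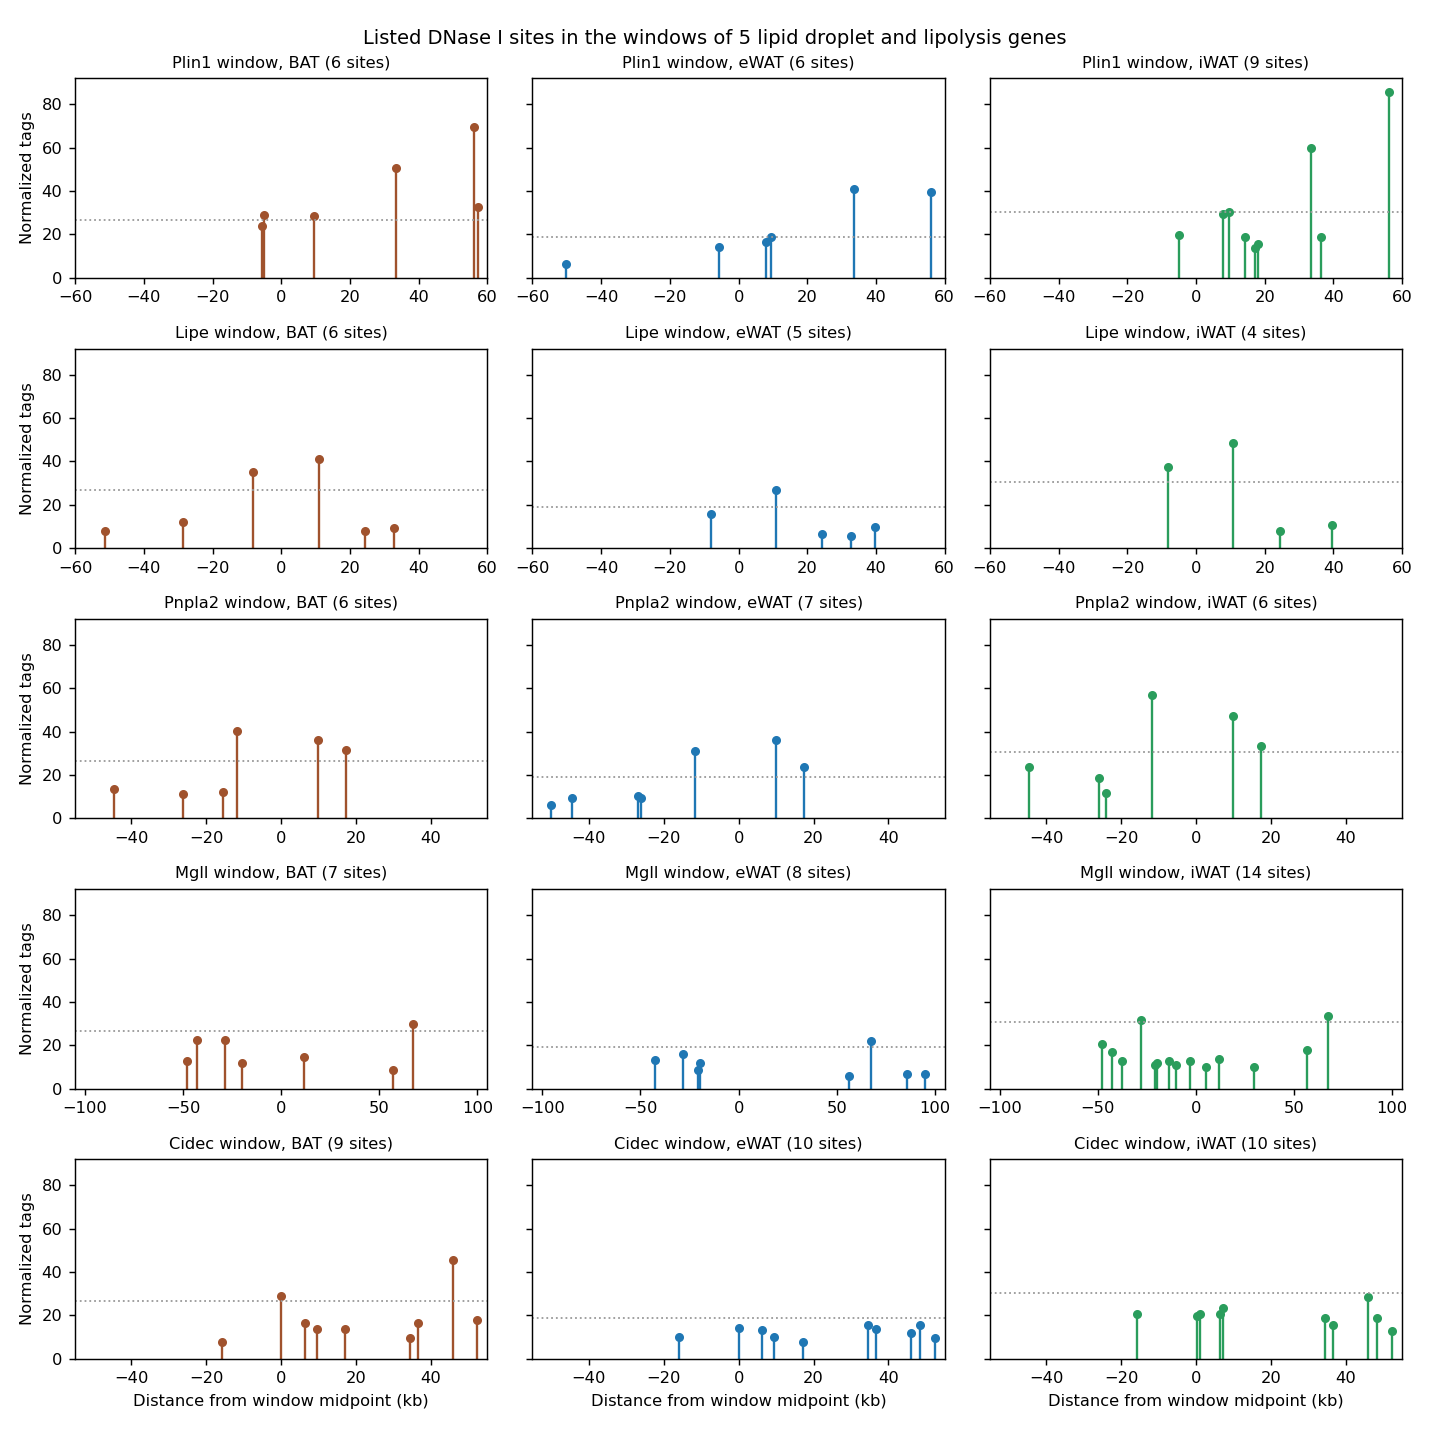
Listed DNase I sites in the window of each gene (rows) for BAT, eWAT and iWAT (columns). Each stem is 1 site at its distance from the window midpoint in kb, its height is the normalized tag count, and the dotted line is the level above which the top 10% of that depot's whole list lies; the highest sites stand at +56.2 kb in the Plin1 window in BAT and iWAT, and the Cidec window holds a site of 45.4 normalized tags in BAT at +45.9 kb.

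Across the 5 windows the sites ranked high by tag count, but not by fold over their surroundings, within their own lists in every depot. A percentile here is the rank of a site by the authors' normalized tag count within its own list, where 100 is the highest and the median of a list is 50. The median site of the windows stood at percentile 72.2 in BAT, 70.1 in eWAT and 69.8 in iWAT. By window, in the same order of depots, it stood at 93.6, 87.5 and 72.6 for Plin1. It stood at 69.3, 70.1 and 73.9 for Cidec and at 76.0, 55.2 and 86.8 for Pnpla2. For Lipe it stood at only 35.2, 50.1 and 61.8, and for Mgll at 62.2, 52.5 and 43.5. Strong sites, those above percentile 75, made up 17 of 34 sites in BAT (50.0%, 95% interval 32.4 to 67.6, against 26.2% of the whole list). They made up 16 of 36 in eWAT (44.4%, 27.9 to 61.9, against 25.6%) and 18 of 43 in iWAT (41.9%, 27.0 to 57.9, against 26.1%). Ranked by fold over the surroundings instead, the median percentile was 45.7 in BAT, 38.6 in eWAT and 18.3 in iWAT, and the strong share 26.5%, 22.2% and 11.6%. Windows differed here too. The median fold was above that of the whole list for Lipe in BAT (12.5 against 9.23) and Pnpla2 in BAT (10.4 against 9.23). It was also above for Pnpla2 in iWAT (12.1 against 9.91) and Mgll in eWAT (8.465 against 7.46), and below in all other cases. By tag count the top 10% held 13 window sites in BAT, 7 in eWAT and 10 in iWAT, which is 38.2%, 19.4% and 23.3% of them, where the whole lists gave 10.2%, 9.68% and 10.2%. Ties keep the shares of the whole lists from being exact. These intervals are exact (Clopper-Pearson), cover only counting error and treat sites as independent, which close neighbours are not.

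The windows were also denser in sites than the genome. They held 5.07 sites per 100 kb in BAT, 5.37 in eWAT and 6.42 in iWAT, where the whole lists held 1.88, 2.37 and 2.46. The windows were drawn around genes, and the background includes stretches without genes. The Cidec window was the densest of the 5, with 8.18 sites per 100 kb in BAT, 9.09 in eWAT and 9.09 in iWAT. The Mgll window was the sparsest in BAT and eWAT, with 3.33 and 3.81, and the Lipe window the sparsest in iWAT, with 3.33. Within 10 kb outside the windows lay 17 further sites in 8 regions, none of them beside the Mgll window.

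Of the 60 regions, 19 were listed in all 3 depots (31.7%, 95% interval 20.3 to 45.0), against 25.2% of all regions of the series, a share inside that interval. A further 15 were listed in exactly 2 depots (25.0%, against 23.3%) and 26 in a single depot (43.3%, against 51.5%). The Pnpla2 window had the highest share of common regions, 5 of 9, and the Mgll window the lowest, 2 of 19. The Cidec window had 6 of 13, the Lipe window 3 of 7 and the Plin1 window 3 of 12. Of the 26 regions of a single depot, 7 were in BAT, 6 in eWAT and 13 in iWAT, where all single-list regions of the series split into 22.2%, 38.1% and 39.7%. In the Mgll window lay 6 of the 13 iWAT regions. A region missing from a list may still be open there, because tags are known only for listed sites.

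**Figure D2:**
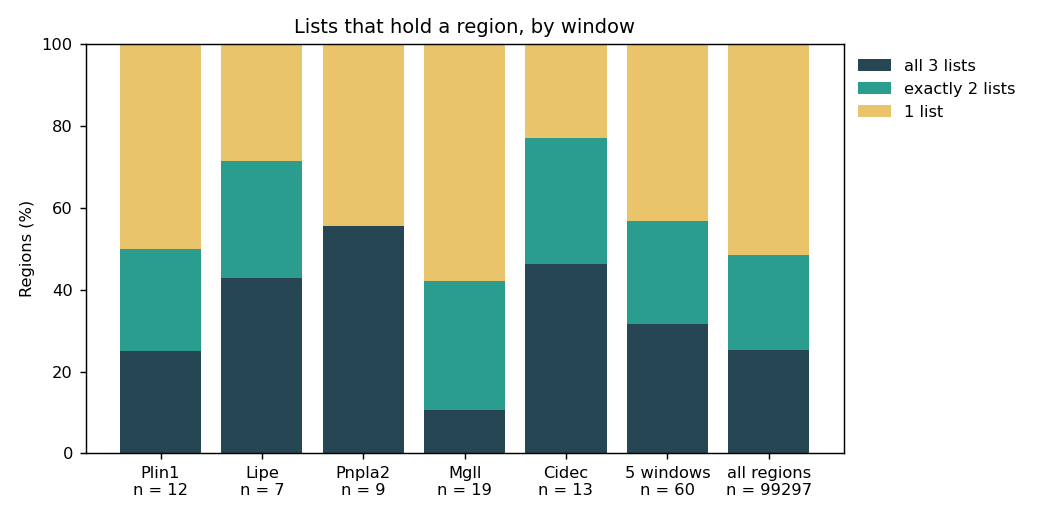
Share of regions listed in all 3 depots, in exactly 2 and in 1, for each gene window, for the 5 windows together and for all 99297 regions of the series, with the number of regions under each bar. The common share runs between 10.5% in the Mgll window and 55.6% in the Pnpla2 window, against 25.2% of all regions.

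The Plin1 window (chr7:86810000-86930000) held the 2 regions with the highest mean percentile of the 5 windows, each high in every depot. The region at chr7:86926032-86926293, 56.2 kb right of the window midpoint, held 69.4 normalized tags in BAT, 39.8 in eWAT and 85.7 in iWAT. These stood at percentiles 99.8, 99.5 and 99.9 of their lists, and at rank 104 of 48308 in BAT, 278 of 60974 in eWAT and 73 of 63214 in iWAT. The region at chr7:86903366-86903598 held 50.5 normalized tags in BAT, 41.0 in eWAT and 60.1 in iWAT, at percentiles 99.1, 99.6 and 99.2. It stood 18.1, 13.7 and 17.0 times above its surroundings. Another common region, at chr7:86879401-86879641 and closer to the midpoint, held 28.3 normalized tags in BAT, 19.0 in eWAT and 30.5 in iWAT, at percentiles 91.8, 89.8 and 90.2. In the RefSeq gene order Plin1 lies between Kif7 and Pex11a, and the window holds neighbouring genes, so no site is assigned to Plin1 itself. In the other windows, too, no site is assigned to the gene itself.

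Normalized tags of different lists are compared as log2 ratios minus the median ratio of the 24988 regions with exactly 1 site in each list, because the sources used here do not state the total behind the scaling. At chr7:86926032-86926293 the centred log2 ratio was 0.52 for BAT over eWAT (95% counting interval 0.04 to 1.01), 0.02 for BAT over iWAT (-0.43 to 0.47) and -0.50 for eWAT over iWAT (-0.98 to -0.03). At the region of chr7:86903366-86903598 the ratios were 0.02, 0.07 and 0.05 for the same contrasts, and each interval held 0. At chr7:86879401-86879641 they were 0.30, 0.22 and -0.08, each with an interval that held 0.

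Around the midpoint of the Plin1 window, 7 regions lay within 24.1 kb between 86864181 and 86888304, a stretch singled out after its values were seen. Of these only the common region at 86879401 was in all 3 lists, although 8 of the 12 sites were strong. The region at chr7:86864181-86864423 held 24.0 normalized tags in BAT and 14.3 in eWAT (percentiles 87.2 and 78.0), and the nearest iWAT site lay 534 bp away. Right beside it, the region at chr7:86864824-86865179 held 29.1 in BAT and 19.7 in iWAT (percentiles 92.5 and 72.6), and the nearest eWAT site lay 423 bp away. All 3 lists thus held a site within this pair of neighbouring regions. The region at chr7:86877830-86878058 was listed in the white depots alone, with 16.7 normalized tags in eWAT and 29.6 in iWAT (percentiles 85.1 and 89.3), and the nearest BAT site lay 1347 bp away. The other 3 regions of the stretch were listed in iWAT alone, at percentiles 69.8, 49.4 and 59.1.

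The 12 sites of this stretch stood only 4.08 to 5.78 times above their surroundings, and 8 of them less than 5 times, while their percentiles by tag count ran between 49.4 and 92.5. The lowest fold over the surroundings in each list was 4, and a site below it is not listed. Of all 113 window sites 24 (21.2%) stood less than 5 times above their surroundings, against 8.82% of all listed sites. In the Plin1 window 2 of 6 sites in BAT, 2 of 6 in eWAT and 6 of 9 in iWAT did so, against 6.77%, 13.5% and 5.88% of the whole lists. The BAT site at chr7:86927277-86927499 is a further case: it held 32.5 normalized tags (percentile 94.7), was listed in BAT alone and stood 4.02 times above its surroundings. An iWAT site lay 984 bp away and an eWAT site 1025 bp away. The remaining 5 regions of the Plin1 window, among them the 3 listed in iWAT alone in the stretch, held between 6.54 and 18.7 normalized tags.

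**Figure D3:**
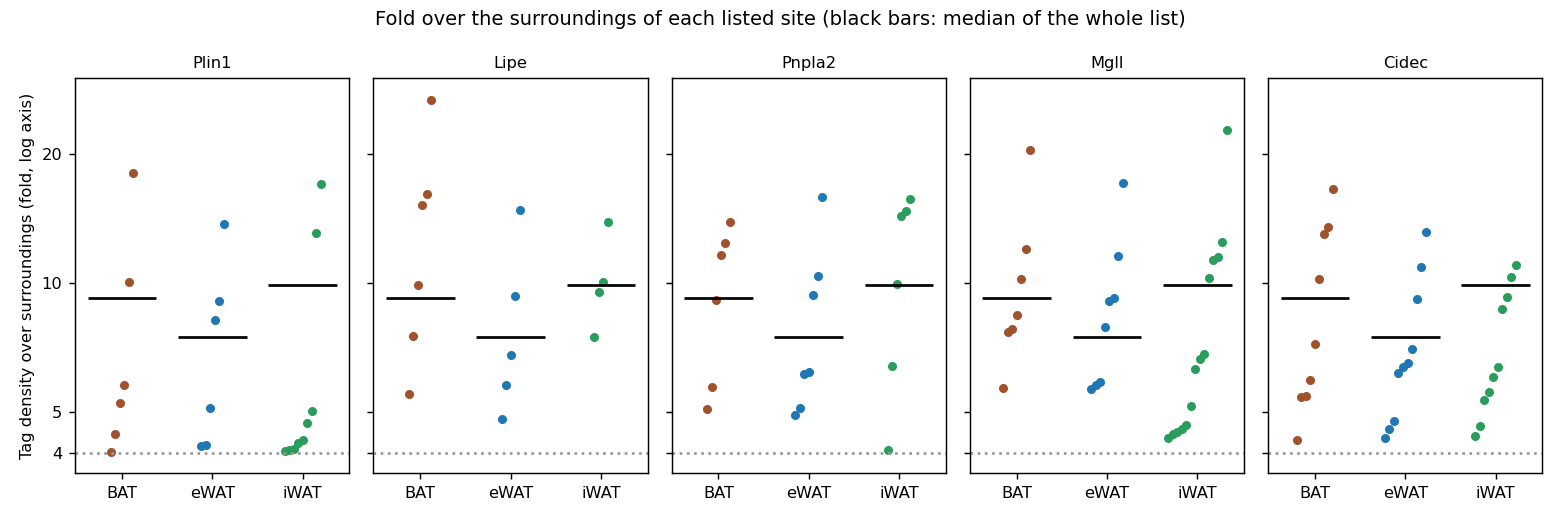
Fold of tag density over the surroundings for every listed site in the 5 windows (log axis), by depot, with the median of each whole list as a black bar and the lowest fold of the lists, 4, as a dotted line. In the Plin1 window the median was 5.515 in BAT, 6.655 in eWAT and 4.30 in iWAT, below the medians of the whole lists (9.23, 7.46 and 9.91).

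In the Cidec window (chr6:113330000-113440000) the tag ratios of some common regions departed from the median, in both directions. Where BAT was the lower depot, the counting intervals held 0. The region at chr6:113430774-113431036 held 45.4 normalized tags in BAT, 11.9 in eWAT and 28.6 in iWAT. It was the highest BAT site and the highest iWAT site of the window, at percentiles 98.5 and 88.4, but stood at percentile 67.1 in eWAT. In tags this was 53 in BAT (exact 95% Poisson interval 39.7 to 69.3), 20 in eWAT (12.2 to 30.9) and 29 in iWAT (19.4 to 41.6). The centred log2 ratio was 1.65 for BAT over eWAT (counting interval 0.89 to 2.48), a fold of 3.15, and 0.99 for BAT over iWAT (0.31 to 1.70). For eWAT over iWAT it was -0.66 (-1.56 to 0.21).

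A pair of common regions in the same window pointed the other way, but the intervals of both for BAT against either white depot held 0. The region at chr6:113369046-113369418 held 7.71 normalized tags in BAT, 10.1 in eWAT and 20.7 in iWAT, at percentiles 3.75, 55.2 and 75.1. Its centred log2 ratio was -1.10 for BAT over iWAT (counting interval -2.41 to 0.09) and -0.67 for BAT over eWAT (-2.02 to 0.58), resting on 9 tags in BAT against 17 in eWAT and 21 in iWAT. By the authors' score the ratio for BAT over iWAT was -0.88, short of 2-fold, and with an overlap of at least 110 bp it was not a common region. The region at chr6:113419277-113419539, 11.5 kb from the BAT-high region between midpoints, held 9.42 normalized tags in BAT, 15.5 in eWAT and 18.7 in iWAT. Here the BAT site stood at percentile 23.4, the eWAT site at 82.0 and the iWAT site at 69.8. The centred log2 ratio was -0.996 for BAT over eWAT (-2.16 to 0.07), just short of the 2-fold limit, and -0.66 for BAT over iWAT (-1.88 to 0.48).

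**Figure D4:**
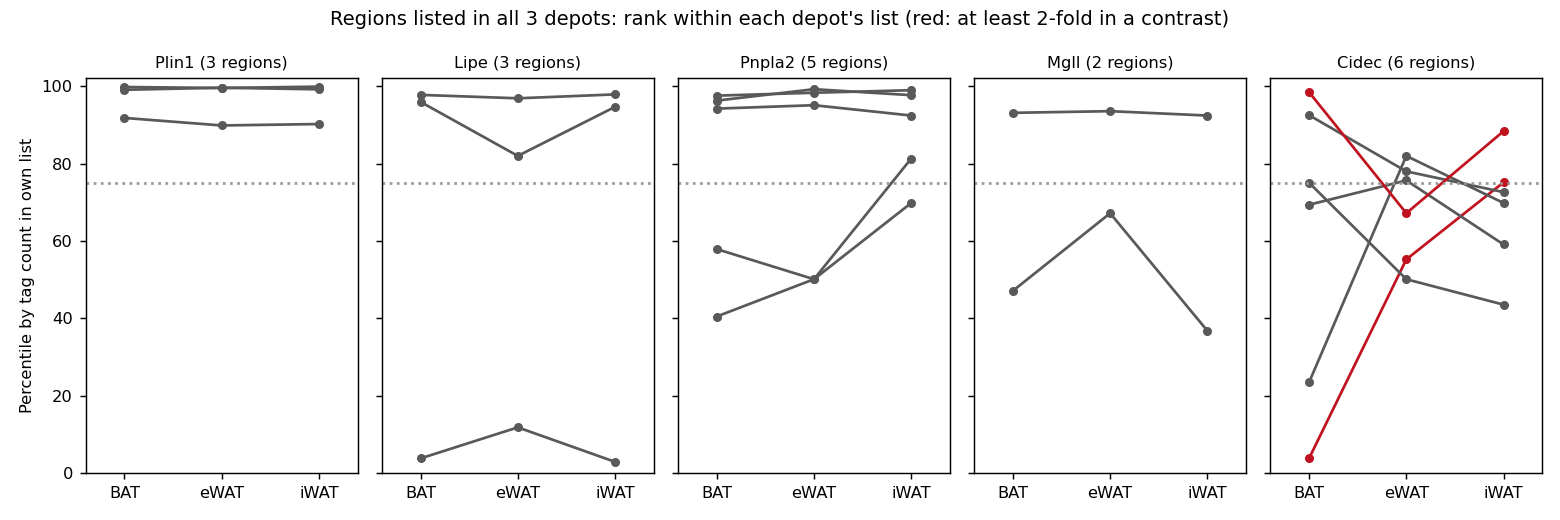
Percentile by tag count within the own list for each region listed in all 3 depots, by window, with lines joining the 3 depots and red for regions at least 2-fold apart in a contrast; the dotted line is percentile 75. The highest regions of the Plin1, Pnpla2 and Mgll windows stay above percentile 89 in each depot, though the order of the top 2 in Plin1 and in Pnpla2 differs in eWAT. Some lower regions move more. In the Cidec window single regions move between percentiles 3.75 and 75.1 or 23.4 and 82.0. A region of the Pnpla2 window moves between 50.1 and 81.3, and a region of the Mgll window between 36.7 and 67.1.

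The other common regions of the Cidec window stayed under 2-fold in each contrast, but not all of their intervals held 0. At chr6:113384936-113385283, near the window midpoint, BAT held 29.1 normalized tags, eWAT 14.3 and iWAT 19.7 (percentiles 92.5, 78.0 and 72.6). The centred log2 ratios were 0.75 for BAT over eWAT (-0.04 to 1.57) and 0.89 for BAT over iWAT (0.05 to 1.76), both under 2-fold. At chr6:113421465-113421742 BAT held 16.3, eWAT 13.7 and iWAT 15.8 normalized tags, with ratios of -0.03 for BAT over eWAT and 0.37 for BAT over iWAT, and both intervals held 0. This region lay 2.20 kb from the one at 113419277, midpoint to midpoint.

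Strong sites missing from a list were also found in the Cidec window. In iWAT alone, the region at chr6:113385980-113386202 held 20.7 normalized tags (percentile 75.1) and that at chr6:113392224-113392446 held 23.6 (percentile 81.3). The nearest site of another depot lay 748 bp away in eWAT for the first and 707 bp away in BAT for the second. The region at chr6:113391295-113391615 held 16.3 normalized tags in BAT and 20.7 in iWAT, with an eWAT site of 13.1 normalized tags only 29 bp away. In the white depots alone, chr6:113433091-113433444 held 15.5 normalized tags in eWAT and 18.7 in iWAT (percentiles 82.0 and 69.8), and the nearest BAT site lay 2095 bp away. Between 113384936 and 113394735, a stretch of 9.80 kb singled out after its values were seen, 10 sites in 6 regions stood 4.29 to 6.37 times above their surroundings, of which 1 region was in all 3 lists. In the RefSeq gene order Cidec lies between Rpusd3 and Jagn1. The remaining 4 regions of the window held between 7.73 and 18.0 normalized tags.

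The Pnpla2 window (chr7:148590000-148700000) had the same 3 leading regions in every depot. At chr7:148633182-148633455 BAT held 40.3 normalized tags, eWAT 30.9 and iWAT 57.1, at percentiles 97.6, 98.3 and 99.0. At chr7:148654685-148654976 BAT held 36.0, eWAT 36.3 and iWAT 47.3, at percentiles 96.3, 99.2 and 97.7. At chr7:148662258-148662521 BAT held 31.7, eWAT 23.8 and iWAT 33.5, at percentiles 94.2, 95.1 and 92.4. The order within the window differed in 1 depot: the first of these was the highest site in BAT and iWAT, and the second the highest in eWAT.

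The ratios between depots at these regions were small. For BAT over eWAT the centred log2 ratios were 0.11, -0.29 and 0.14, for BAT over iWAT -0.18, -0.07 and 0.25, and for eWAT over iWAT -0.28, 0.22 and 0.11. All 9 intervals held 0, and the widest, at chr7:148662258-148662521 for BAT over iWAT, ran between -0.47 and 0.96, so a difference was not detectable at this depth. The sites of these 3 regions stood 9.36 to 15.9 times above their surroundings, and no strong site of the window was missing from a list. The remaining 6 regions, 2 of them in all 3 lists, held between 5.95 and 23.6 normalized tags. In the RefSeq gene order Pnpla2 lies between Rplp2 and Cracr2b.

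The Lipe window (chr7:26110000-26230000) had 2 high common regions, 18.9 kb apart at their midpoints. At chr7:26180734-26181005 BAT held 41.1 normalized tags, eWAT 26.8 and iWAT 48.3, at percentiles 97.7, 96.9 and 97.9, and the centred log2 ratios ran between -0.25 and 0.34. At chr7:26161804-26162094 BAT held 35.1, eWAT 15.5 and iWAT 37.4, at percentiles 95.9, 82.0 and 94.6. This second region was relatively lower in eWAT than in the other depots: the centred log2 ratio was 0.90 for BAT over eWAT (counting interval 0.16 to 1.67) and -0.67 for eWAT over iWAT (-1.45 to 0.08), while BAT over iWAT gave 0.23 (-0.44 to 0.91). None of these reached 2-fold, and the interval for eWAT over iWAT held 0. In eWAT the site stood 4.82 times above its surroundings, against 7.52 in BAT and 9.51 in iWAT.

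The remaining sites of the Lipe window were low or middling by tag count, but not by fold over their surroundings. Another common region, at chr7:26194235-26194512, held 7.71 normalized tags in BAT, 6.54 in eWAT and 7.88 in iWAT (percentiles 3.75, 11.8 and 2.85), and rests on 9, 11 and 8 tags. Its sites stood 6.79 to 10.1 times above their surroundings. The other 4 regions held between 5.35 and 12 normalized tags, at percentiles of 0.58 to 50.1. Their sites stood 9.30 to 26.7 times above their surroundings, the highest being the BAT site at chr7:26141315-26141537. No strong site was missing from a list in this window. In the RefSeq gene order Lipe lies between Cnfn and Cxcl17.

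The Mgll window (chr6:88620000-88830000), the longest at 210 kb, had 1 high region common to all depots. At chr6:88792024-88792406, 67.2 kb right of the midpoint, BAT held 30.0 normalized tags, eWAT 22.0 and iWAT 33.5, at percentiles 93.1, 93.5 and 92.4. It stood 20.5, 17.1 and 22.7 times above its surroundings and was the highest site of the window in each depot. The centred log2 ratios were 0.17 for BAT over eWAT and 0.17 for BAT over iWAT, and for eWAT over iWAT the interval ran between -0.71 and 0.71. The only other common region, at chr6:88704943-88705205, held 12 normalized tags in BAT, 11.9 in eWAT and 11.8 in iWAT (percentiles 47.1, 67.1 and 36.7).

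Left of the midpoint, BAT sites lay beside white-depot sites without overlapping them in 2 places. At chr6:88696248-88696470 a site was listed in BAT alone, with 22.3 normalized tags (percentile 84.5). Only 221 bp further lay a region of the white depots alone, chr6:88696691-88696917, with 16.1 normalized tags in eWAT and 31.5 in iWAT (percentiles 83.6 and 91.0). The other place was chr6:88682048-88682270, a BAT site of 22.3 normalized tags (percentile 84.5) that ended 27 bp before a region of eWAT and iWAT with 13.1 and 16.7 normalized tags. Regions of the white depots alone made up 4 of the 19 in this window and 7 of the 60 in all 5 windows. Of all regions of the series, 11.3% were of this kind. In the Mgll window the nearest BAT sites lay 27, 221, 673 and 80 bp from these 4 regions. By contrast BAT and iWAT sites overlapped at chr6:88676777-88677090, which was listed in BAT and iWAT, with 12.8 and 20.7 normalized tags, and the nearest eWAT site lay 5227 bp away.

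In the Mgll window BAT listed 7 sites, eWAT 8 and iWAT 14. The 6 regions listed in iWAT alone were weak, with 9.85 to 12.8 normalized tags and percentiles of 20.2 to 43.5. In the RefSeq gene order Mgll lies between Kbtbd12 and Abtb1. The 13 regions of the window not named by the rule, these 6 included, held between 5.95 and 17.7 normalized tags.

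Over the 19 regions common to all depots, each with exactly 1 site per list, 2 differed by at least 2-fold in a contrast, where 11.6% of all 24988 such regions did, so the share in these windows (10.5%) was near the background. Both lay in the Cidec window, and the call at 113369046 was lost with an overlap of at least 110 bp and with scores in place of tags. For BAT over eWAT 1 region was higher (background 2.73%) and none lower (2.44%), for BAT over iWAT none was higher (2.80%) and 1 lower (2.89%), and for eWAT over iWAT none was higher (1.94%) or lower (1.88%). The median centred log2 ratio of the 19 was 0.14 for BAT over eWAT, 0.17 for BAT over iWAT and -0.0038 for eWAT over iWAT, where the median of all common regions is 0 by construction. Counting intervals did not hold 0 at 3 of the 19 for BAT over eWAT, 2 for BAT over iWAT and 1 for eWAT over iWAT. The share of all common regions with such an interval was not computed, so these counts have no background. The 3 contrasts share libraries and are not independent. Without centring the medians were 0.41, -0.16 and -0.61, so the sign for BAT over iWAT depends on the scaling. The counts depend on it too: without centring 3 regions were at least 2-fold higher for BAT over eWAT and 5 lower for eWAT over iWAT. Before centring the medians of all 24988 common regions were 0.28, -0.32 and -0.60 for the same contrasts. How many of them pass 2-fold without centring was not computed, so these counts have no background.

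**Figure D5:**
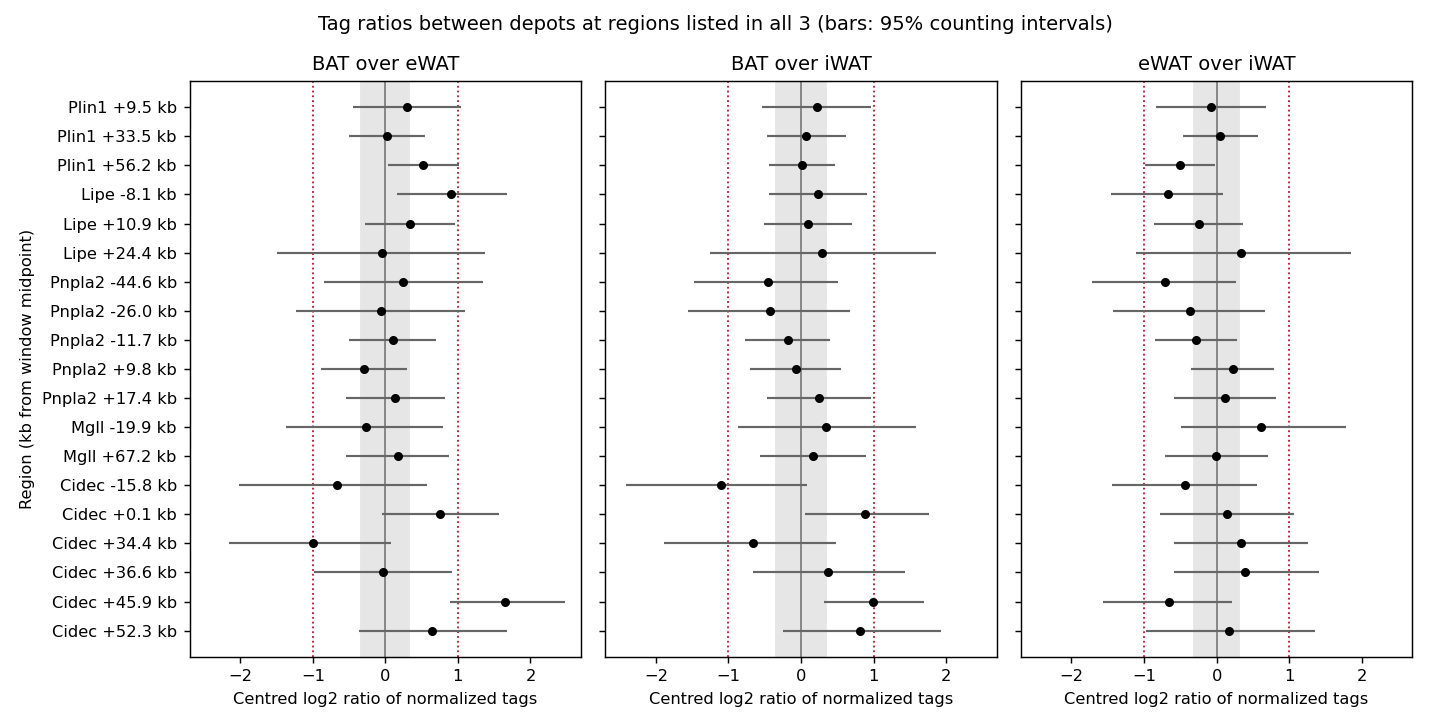
Centred log2 ratio of normalized tags for the 19 regions listed in all 3 depots, in 3 contrasts, with 95% counting intervals as bars, the middle 50% of all 24988 common regions in grey and 2-fold as dotted red lines. The Cidec region at +45.9 kb is the only one past 2-fold for BAT over eWAT, and that at -15.8 kb the only one past 2-fold for BAT over iWAT.

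In all, 9 of the 19 common regions were strong in every list (27.1% of all common regions of the series were) and 7 were in the top 10% of every list (10.5% were). Of the 41 regions not common to all depots, 12 held a strong site (29.3%, against 12.8% of such regions in the series). These were 7 regions of exactly 2 lists, and 5 of a single list, of which 3 were in BAT, 0 in eWAT and 2 in iWAT. A list that lacked the region held a site within 1 kb in 9 of the 12.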

How the data were processed

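Per the submitters' processing notes, STAR, HOMER and the build mm9 were used, with no roles, versions or settings stated. The authors deposited 1 list of sites per depot with the column names of HOMER findPeaks. For each site the deposited file holds a normalized tag count, used here as a signal scaled to a library total that is not stated, and a whole-number peak score. It also holds, per the file headers, a focus ratio (a fraction), a fold (ratio) of tag density over the surroundings with its p-value, and a clonal fold.

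Normalized tag counts were whole multiples of 1 step, the value of 1 tag: 0.857 in BAT, 0.595 in eWAT and 0.985 in iWAT. This held for 99.98%, 99.95% and 99.998% of values at a tolerance of 0.05 (0.005 below 10), and the median site of the lists held 14, 16 and 14 tags. Poisson intervals on tags, and ratio intervals built from them by the exact binomial method, cover counting error only. Coordinates are those of the lists, in mm9. The gene table at hand is of another build, GRCm38 (10 of 21 chromosomes had sites past its final gene), and gave gene names and order only. For this reason other genes of the pathway and cell type markers were not analysed here.

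The windows and members were chosen with earlier results of these data known. Named in each window were the 3 common regions with the highest mean percentile, every region of exactly 2 lists or 1 list with a strong site, every common region at least 2-fold apart, and the highest site of each depot. No test between depots was possible. The merging and ratio code was tested on simulated lists. Alternatives covered the window, list length, merging, ranking, centring and fold limit. Python 3.11.15, numpy 2.4.6, pandas 2.3.3, scipy 1.17.1 and matplotlib 3.10.9 were used.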

Additional observations from a re-analysis of the deposited data

How the results depend on the processing

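Of 110 alternative values, 86 stayed within the limits set for them (1.5 times for a count, the 95% interval for a share or median), and none of the called regions changed sign. No paired analysis was possible because there was 1 library per depot. In the central 50% of each window the sites numbered 22 in BAT and 20 in eWAT, and no region was 2-fold higher for BAT over eWAT, since the Cidec region at 113430774 lies outside it. The leading Plin1 regions at 86926032 and 86903366 and the leading Mgll region at 88792024 lie outside it too. Ranked by fold over the surroundings, the median percentile was 45.7 in BAT, 38.6 in eWAT and 18.3 in iWAT, and 26.5%, 22.2% and 11.6% of the sites were strong. The high rank of the pooled sites is thus one of tag count and not of fold, while single windows differ. With strong as the top 10%, the shares were 19.4% in eWAT and 23.3% in iWAT. Without centring, 3 regions were 2-fold higher for BAT over eWAT and 5 lower for eWAT over iWAT, where the median was -0.61 (-0.60 over all common regions). At 1.5-fold, higher and lower regions numbered 4 and 2 for BAT over eWAT, 3 and 2 for BAT over iWAT, and 1 and 3 for eWAT over iWAT. With lists of equal length (48308 sites), 1 region was 2-fold higher for BAT over iWAT. The region at 113369046 was no longer counted as lower for BAT over iWAT with an overlap of at least 110 bp or with scores (0 regions each; -0.88 by scores), and by scores 1 region was lower for BAT over eWAT. For none of these alternatives was the share of all common regions computed, so their counts of called regions have no background beside them. The low tag counts, 8 to 87 per common region, limit what can be told apart.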
